A study of Mus musculus with 18 samples.

Results

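The 10 genes described here encode the subunits of the variant Polycomb repressive complex PRC1.1: *Kdm2b*, *Bcor*, *Bcorl1*, *Pcgf1*, *Skp1a*, *Usp7*, *Rybp*, *Yaf2*, *Ring1* and *Rnf2*. They were picked by name from the known composition of the complex, and each was found as 1 entry in each of 4 tables of gene expression, among 23210 gene names that the tables share. *Bcor* shared its entry with *2900008C10Rik*, which RefSeq lists as a synonym of *Bcor*, and *Ring1* shared its entry with the microRNA gene *Mir219a-1* in the tables of *Kdm2b* hippocampi and neurospheres. All 10 passed the filter on low values in every comparison.

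The complex places ubiquitin on histone H2A. RING1 and RNF2 (also called Ring1B) are its alternative ubiquitin ligases, and PCGF1 is the Polycomb group RING finger protein that marks out this variant from the other PRC1 complexes. BCOR or its relative BCORL1 joins PCGF1 to KDM2B, whose CxxC zinc finger binds unmethylated CpG dinucleotides and so brings the complex to CpG islands. RYBP or YAF2 takes the place of the CBX proteins of canonical PRC1, SKP1 holds the F-box of KDM2B, and USP7 is a deubiquitinase. *Skp1a* and *Usp7* also serve many processes apart from Polycomb.

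The tissues, and the cells from which neurospheres were grown, came from mice at postnatal day 0 (P0). In 3 comparisons the controls were Kdm2bfl/+ or Kdm2bfl/fl, not told apart by the labels, and the conditional knockouts (cKO) were Kdm2bEmx1-delta-CxxC, with 3 control and 3 cKO libraries of hippocampus, 2 and 2 of neurospheres, and 2 and 2 of cortex. The neurospheres were neural progenitor cells (NPC) enriched from P0 hippocampi and grown floating with FGF2 and EGF. By the methods of the paper they spent 3 generations in culture before sequencing, so their RNA was not taken at P0. In the remaining comparison the hippocampal controls were Rnf2fl/+ or Rnf2fl/fl and the knockouts Rnf2Emx1-cKO, with 2 libraries each. Controls thus carried floxed alleles too. Emx1-Cre acts in progenitors of the dorsal telencephalon and their offspring, so interneurons, microglia and vessel cells in the tissue kept their alleles. The unit of all levels is FPKM, or fragments for each kilobase of transcript relative to all the fragments mapped in a library, which allow levels of different genes to be compared within a library. Each table was scaled by itself, so levels are not compared between tables. The labels do not say which libraries came from separate animals, and p-values measure only the spread between these libraries. In bulk samples, fewer cells of a type and less RNA per cell cannot be told apart.

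Markers were compared with the labelled tissues. *Prox1*, a gene of the dentate gyrus, was at 29.8 to 41.3 FPKM in *Kdm2b* hippocampi, 19.5 to 22.7 in *Rnf2* hippocampi and 0.682 to 1.43 in cortex. Neurospheres had *Nes* at 89.4 to 195 FPKM and *Neurod6*, a gene of excitatory neurons, at no more than 0.0754, and their oligodendrocyte lineage markers summed to 2360 to 2479 FPKM. Reads on genes could be recovered for the tables of cortex, with 18480515 to 21905224 per library, and *Rnf2* hippocampi, with 14654894 to 16334420. Depth is unknown for the others. In these 2 tables the 10 genes held 134 to 8944 reads per library, the fewest on *Pcgf1* in a *Rnf2* control, where counting error alone is 8.64%. Neurosphere control library 1 stood apart in its total, 855276 FPKM against 452580 to 522964 in the other 3, and 29.3% of it lay in entries that name no gene.

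Subunit levels spanned a wide range in every table. In control hippocampi *Skp1a* was the most abundant at 223 ± 8.35 FPKM (SD, n = 3), above 98.4% of the genes tested, followed by *Usp7* at 37.8 ± 0.696 and *Kdm2b* at 29.4 ± 2.15 FPKM. *Bcorl1* was the lowest at 3.80 ± 0.696 FPKM. *Skp1a* ranked first and *Bcorl1* last in all 4 tables, with ranges that did not meet those of their neighbours in the order. In between, the control ranges of *Yaf2* and *Rnf2*, and those of *Pcgf1* and *Ring1*, overlapped in *Kdm2b* hippocampi, as did *Rybp* and *Bcor* in neurospheres, *Rnf2* and *Usp7*, *Pcgf1* and *Bcor*, and *Bcor* and *Ring1* in cortex, and *Rybp* and *Kdm2b*, and *Pcgf1* and *Bcor*, in *Rnf2* hippocampi. *Kdm2b* ranked 3 in *Kdm2b* hippocampi, 5 in neurospheres and cortex and 6 in *Rnf2* hippocampi.

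**Figure D1:**
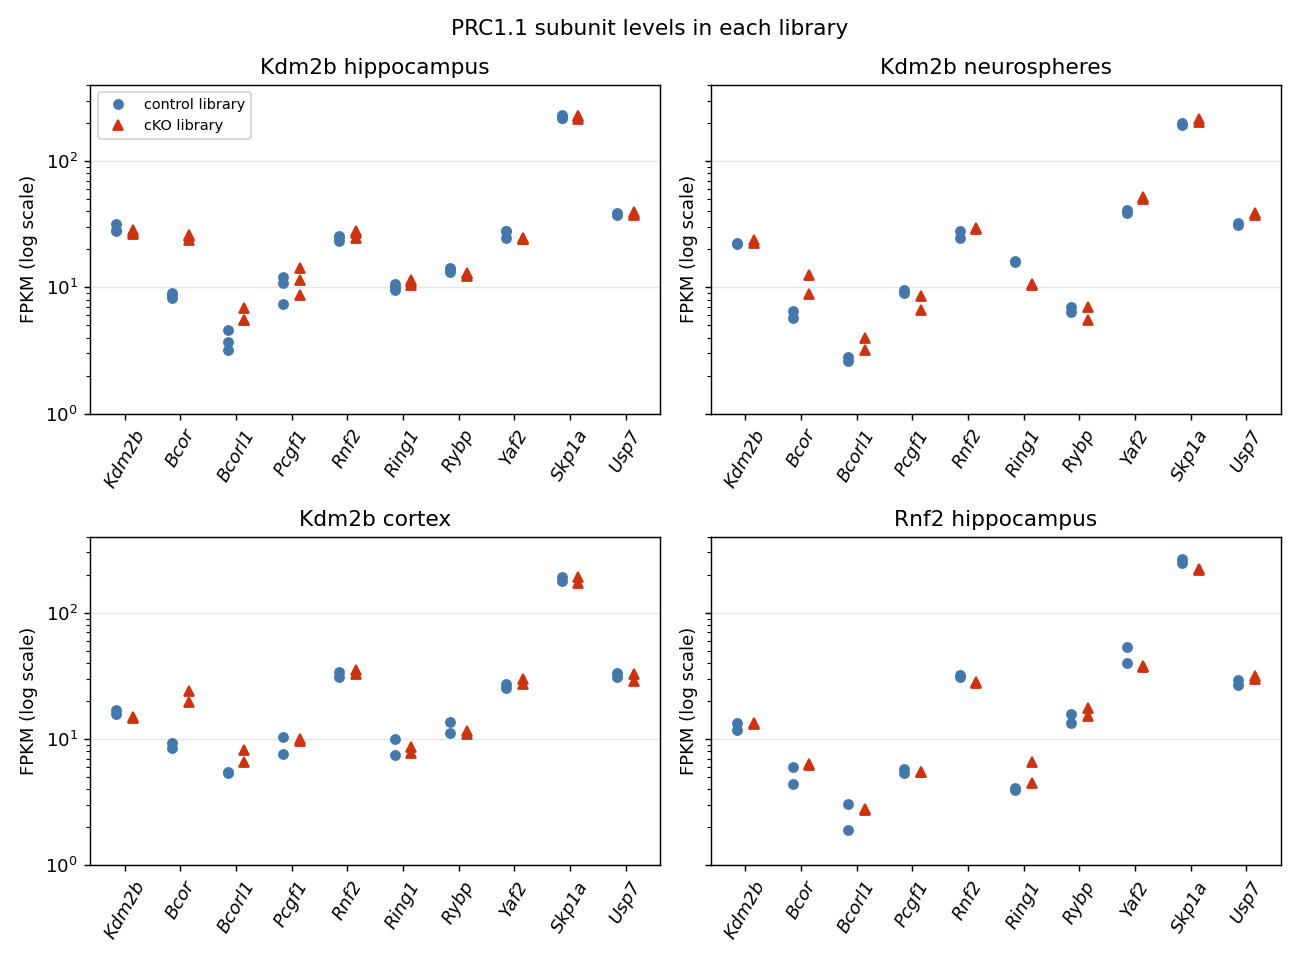
FPKM of the 10 subunits in each library on a log axis, with circles for control and triangles for cKO libraries in each of the 4 comparisons. *Skp1a* lies far above the other subunits in every panel, and *Bcor* is the subunit whose circles and triangles part most in the *Kdm2b* hippocampus and cortex.

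Of the 10 subunits, *Bcor* rose in all 3 *Kdm2b* comparisons and *Bcorl1* in hippocampi, *Ring1* fell in neurospheres, and no subunit was called in *Rnf2* hippocampi. Calls needed a log2 fold change, on log2(FPKM + 1), beyond 0.4 or -0.4 together with an unadjusted p under 0.05 from limma, the thresholds of the study. In *Kdm2b* hippocampi 2 subunits were called higher and 0 lower, against 3.89% and 2.25% of all 13446 genes tested. In neurospheres 1 was higher and 1 lower, against 11.4% and 13.2% of 12227 genes, or 1392 and 1620 genes, which became 1256 and 830 when the libraries were rescaled to the same FPKM total, with a shift of 0.105 in the log2 fold change of the median gene. In cortex 1 was higher and 0 lower, against 4.73% and 2.28% of 15691 genes. In *Rnf2* hippocampi 0 were higher and 0 lower, against 2.86% and 1.85% of 15764 genes. Without the fold threshold, limma at an unadjusted p under 0.05 gave 0 lower subunits in *Kdm2b* hippocampi, 0 lower in cortex, and 0 in either direction in *Rnf2* hippocampi, where the smallest p was 0.0922. Over all genes the same cut gave 1553 lower of 13446 in *Kdm2b* hippocampi and 801 lower of 15691 in cortex. In *Rnf2* hippocampi it gave 692 higher and 429 lower of 15764. With the fold threshold, limma-voom on the recovered reads called 0 lower subunits in cortex, beside 412 of 15691 genes. In *Rnf2* hippocampi it called 0 in either direction, beside 402 higher and 354 lower of 15764 genes. With only 10 subunits, these counts of 0 are not read as a result.

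The share of subunits whose control and cKO ranges did not overlap was 4 of 10 in *Kdm2b* hippocampi, where 29.2% of all genes behaved so, 9 of 10 in neurospheres (66.4%), 4 of 10 in cortex (44.8%) and 6 of 10 in *Rnf2* hippocampi (38.3%). The median log2 fold change over the 10 was 0.06 in *Kdm2b* hippocampi, 0.14 in neurospheres, 0.03 in cortex and 0.10 in *Rnf2* hippocampi, beside medians over all genes between -0.01 and 0.01. The called changes were thus those of 3 single subunits.

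**Figure D2:**
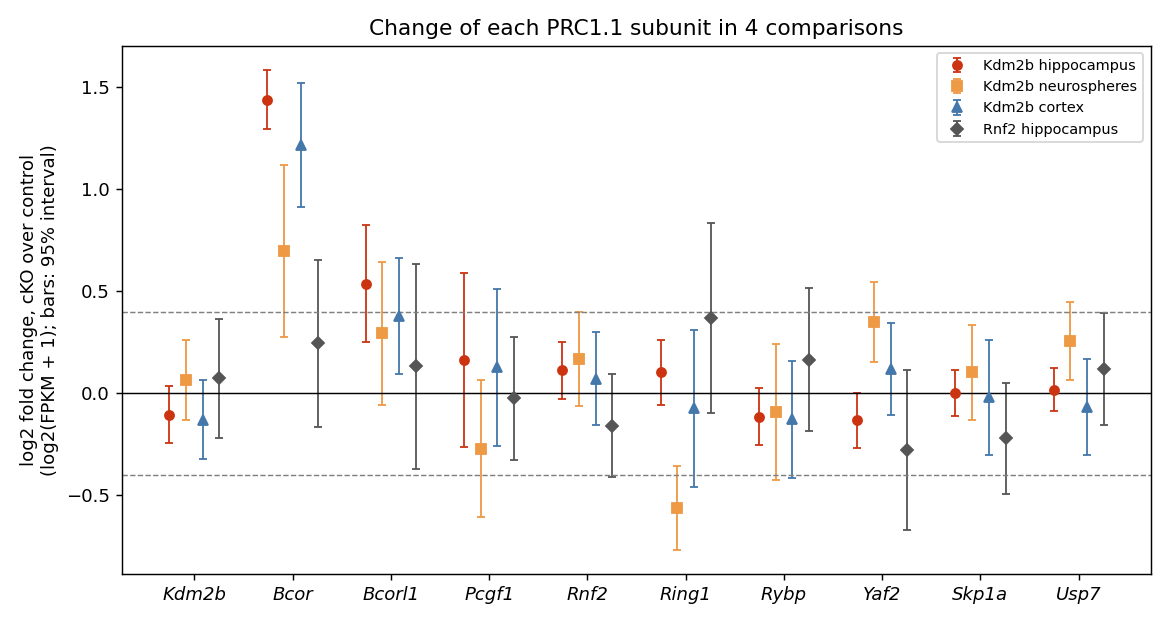
Log2 fold change of cKO over control for each subunit in the 4 comparisons, with 95% intervals from limma and dashed lines at 0.4 and -0.4. *Bcor* in the 3 *Kdm2b* comparisons lies at 0.70 to 1.44, and most other intervals include 0.

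*Kdm2b* (ENSMUSG00000029475, GRCm38 chromosome 5, 122870665 to 122989823, minus strand) is the targeted gene of 3 comparisons. The floxed part is exon 13, which encodes the CxxC zinc finger and is shared by the long and the short isoform. It is shown because its loss defines the cKO, as exon 13 of 23 of the long isoform in GENCODE M21, at chr5:122888530-122888754 on the minus strand, 225 bases of coding sequence in 75 codons, with the 8 cysteine codons in capitals.
Kdm2b exon 13: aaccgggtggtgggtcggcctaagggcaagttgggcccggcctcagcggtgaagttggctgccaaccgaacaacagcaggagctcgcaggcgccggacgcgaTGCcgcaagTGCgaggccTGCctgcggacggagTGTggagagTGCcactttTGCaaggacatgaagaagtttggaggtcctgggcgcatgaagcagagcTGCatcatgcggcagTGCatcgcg
Among the capitals is the spacing that gives the finger its name, a cysteine, 2 other residues and a cysteine. The exon is 2.07% of the 10869 bases of the gene model, so FPKM over the whole gene hardly registers its loss and does not check the genotype. The paper itself reports the loss of exon 13 from RNA-seq reads of the neurospheres.

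Over the whole gene *Kdm2b* stayed near its control level. In *Kdm2b* hippocampi the control libraries were at 31.9, 28.2 and 28.1 FPKM and the cKO libraries at 28.2, 27.3 and 26.2, which overlap. The log2 fold change was -0.10 (95% interval -0.25 to 0.04). In neurospheres it was at 22.2 and 21.9 FPKM in controls and 22.5 and 23.7 in cKO (log2 fold change 0.06, interval -0.13 to 0.26). In cortex it was at 15.7 and 16.9 FPKM in controls and 14.9 and 14.7 in cKO (-0.13, interval -0.32 to 0.06). The cortical cKO libraries were both below the controls, and in none of these comparisons did limma call the difference. In *Rnf2* hippocampi it was at 11.9 and 13.4 FPKM in controls and at 13.5 and 13.2 in cKO.

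Reads at the *Kdm2b* locus may be shared with overlapping genes, since the counting is not stated to use strand. *A930024E05Rik*, an antisense gene that overlaps the 5′ end of *Kdm2b* (chromosome 5, 122989354 to 122998345), was at 1.55 ± 0.200 FPKM in control and 2.54 ± 0.445 in cKO hippocampi (SD, n = 3), a log2 fold change of 0.47 that passed the call (limma, adjusted p = 0.0525). In neurospheres it was at 7.82 ± 0.932 and 8.99 ± 0.266 FPKM, in cortex at 12.1 ± 0.670 and 13.9 ± 0.616, and in *Rnf2* hippocampi at 2.50 ± 0.738 and 1.70 ± 0.322 (SD, n = 2), none of them called. *Rnf34*, which meets the other end of *Kdm2b*, was not called in any comparison, with log2 fold changes from -0.35 in neurospheres to 0.12 in cortex. Of 20 annotated genes that overlap a subunit or lie within 5000 bases of it, 15 had a mean under 1 FPKM in every group where they had an entry of their own. Among the rest, the hippocampal value of *A930024E05Rik* was the 1 call. Most of the 20 had such an entry only for cortex and *Rnf2* hippocampi, so their levels in *Kdm2b* hippocampi and neurospheres were not looked at.

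*Bcor* (ENSMUSG00000040363, chromosome X, 12036740 to 12160355, minus strand) encodes the BCL6 corepressor, the scaffold between PCGF1 and KDM2B. It was the most strongly changed subunit. In control hippocampi its libraries were at 8.63, 8.19 and 8.93 FPKM, and in cKO hippocampi at 25.4, 26.0 and 23.5. Every cKO library thus stood at more than 2 times any control, and the means differed by 2.91-fold (log2 fold change 1.44, standard error, SE, 0.06, limma adjusted p = 1.82e-05). In cortex the controls were at 8.42 and 9.24 FPKM and the cKO libraries at 24.2 and 19.7, a 2.48-fold difference of the means (log2 fold change 1.22, SE 0.12, limma adjusted p = 0.0428). These cortical values rest on 1608 and 1702 reads in controls and 4112 and 3196 in cKO.

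The rise of *Bcor* was smaller in neurospheres. The controls were at 5.73 and 6.47 FPKM and the cKO libraries at 8.77 and 12.5, which lie apart from the controls but also from each other. The log2 fold change was 0.70 (SE 0.17, limma adjusted p = 0.0376), and it was 0.46 without cKO library 2 and 0.93 without cKO library 1. In *Rnf2* hippocampi the controls were at 4.41 and 6.04 FPKM and the cKO libraries at 6.34 and 6.28. The cKO libraries lay above control library 2 by less than the controls differed from each other (log2 fold change 0.24, interval -0.17 to 0.65, adjusted p = 0.769 from limma), and without control library 2 the value was 0.43 and passed the call.

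*Bcorl1* (ENSMUSG00000036959, chromosome X, 48341358 to 48408049, plus strand), the paralogue of *Bcor*, also rose in *Kdm2b* hippocampi, from a lower level. Its controls were at 3.18, 4.55 and 3.68 FPKM and its cKO libraries at 5.47, 5.52 and 6.85. The groups did not overlap, and the log2 fold change was 0.54 (SE 0.13, limma adjusted p = 0.0345). In cortex it was at 5.40 and 5.45 FPKM in controls and 8.14 and 6.63 in cKO, a log2 fold change of 0.38 (limma, unadjusted p = 0.0186, adjusted p = 0.273), just under the fold threshold. With limma-voom on the reads it was 0.44 and passed. In neurospheres it was at 2.59 and 2.82 FPKM in controls and 3.16 and 3.95 in cKO (0.29, interval -0.06 to 0.64), and in *Rnf2* hippocampi at 1.91 and 3.06 against 2.73 and 2.79 (0.13, interval -0.37 to 0.63). *Elf4*, 2997 bases beyond the 3′ end of *Bcorl1*, was below 1 FPKM in every group.

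**Figure D3:**
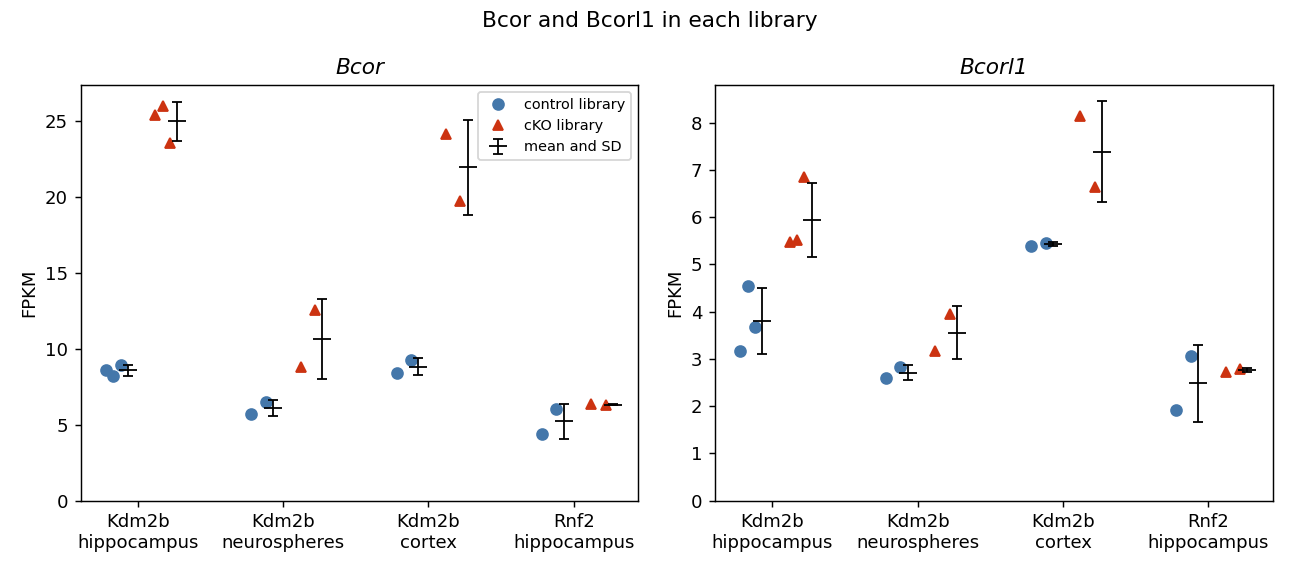
FPKM of *Bcor* and *Bcorl1* in each library of the 4 comparisons, with circles for controls, triangles for cKO and bars for the mean and SD (n = 3 in the *Kdm2b* hippocampus, 2 elsewhere). *Bcor* cKO libraries lie at 23.5 to 26.0 FPKM in *Kdm2b* hippocampi and at 19.7 and 24.2 in cortex, while the *Rnf2* cKO libraries lie near their controls.

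Both genes are on the X chromosome, and in each *Kdm2b* comparison 1 library was of the other sex. *Xist*, which females express from the inactive X, was at 154 FPKM in cKO library 1 of the *Kdm2b* hippocampi and at no more than 0.0732 in the other 5. Without that library *Bcor* had a log2 fold change of 1.43 and *Bcorl1* one of 0.58, and both still passed the call. In neurospheres *Xist* was at 140 to 175 FPKM except in cKO library 1 (0.361), and without it *Bcor* and *Bcorl1* had 0.93 and 0.42. In cortex it was at 132 to 189 FPKM except in control library 1 (0.0177), and without it the values were 1.16 and 0.37. All 4 *Rnf2* libraries had *Xist* at 71.0 FPKM or more and *Ddx3y*, a gene of the Y chromosome, at 0, so that comparison was female throughout. Within 1 sex the rise of *Bcor* in hippocampi was thus close to that over all libraries. In neurospheres 1 cKO library was left and in cortex 1 control library, so the values there rest on single libraries.

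The 250 bases before a RefSeq start of *Bcor* and of *Bcorl1* are shown because CG dinucleotides, in capitals, are what the deleted zinc finger recognises. They are from GRCm38.p6, 5′ to 3′ on the strand of the gene, at chrX:12160347-12160596 (minus) and chrX:48341108-48341357 (plus).
Bcor: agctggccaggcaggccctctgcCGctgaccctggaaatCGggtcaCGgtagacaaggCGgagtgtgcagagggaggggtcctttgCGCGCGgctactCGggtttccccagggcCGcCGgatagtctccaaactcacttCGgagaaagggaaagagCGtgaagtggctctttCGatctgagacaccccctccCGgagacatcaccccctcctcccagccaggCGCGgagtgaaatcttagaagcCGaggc
Bcorl1: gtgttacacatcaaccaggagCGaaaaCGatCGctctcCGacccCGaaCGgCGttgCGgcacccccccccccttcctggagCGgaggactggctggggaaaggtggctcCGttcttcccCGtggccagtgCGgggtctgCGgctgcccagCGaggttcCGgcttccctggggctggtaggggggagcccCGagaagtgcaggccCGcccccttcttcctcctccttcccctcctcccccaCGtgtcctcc
The *Bcor* stretch holds 17 CG and that of *Bcorl1* 18, where the median over 32851 windows of 250 bases before RefSeq starts is 6, and 23.5% and 21.7% of the windows hold as many or more. CG is its own reverse complement, so both strands give 1 count. Among the 7 subunits with a window, in 11 windows, the counts ran from 12 before a start of *Kdm2b* to 55 before *Usp7*, which was not called in any comparison. *Rnf2* had 20, *Skp1a* 24 and *Ring1* 30. These are letters in a window, and binding was not analysed here.

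*Pcgf1* (ENSMUSG00000069678, chromosome 6, 83077869 to 83080855), whose product defines the complex, was not called in any comparison. Its values scattered widely in hippocampi, at 10.8, 7.395 and 12.1 FPKM in controls and 14.2, 11.4 and 8.69 in cKO. The log2 fold changes were 0.16 in *Kdm2b* hippocampi (interval -0.26 to 0.59), -0.27 in neurospheres (-0.60 to 0.06), 0.13 in cortex (-0.26 to 0.51) and -0.02 in *Rnf2* hippocampi (-0.33 to 0.28). In neurospheres the controls were at 9.50 and 8.996 FPKM and the cKO libraries at 6.56 and 8.53, so that both cKO libraries were lower, and without cKO library 2 the value was -0.44 and passed the call.

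*Rnf2* (ENSMUSG00000026484, chromosome 1, 151458004 to 151500955, minus strand) and *Ring1* (ENSMUSG00000024325, chromosome 17, 34020792 to 34024680, minus strand) encode the alternative ubiquitin ligases. In the *Rnf2* knockout, *Rnf2* itself was at 32.3 and 30.8 FPKM in controls and 28.5 and 27.8 in cKO. Both cKO libraries were lower, but by little (log2 fold change -0.16, interval -0.41 to 0.09, adjusted p = 0.762 from limma), on 1992 and 1979 reads against 1943 and 1856. The sources used here do not give the floxed exons of *Rnf2*, so the level over the whole gene does not check the deletion, and the directions of this comparison rest on its labels. *Trmt1l*, which overlaps the end of *Rnf2* on the other strand, was at 1.95 ± 0.178 and 1.71 ± 0.0674 FPKM (SD, n = 2) there. In *Kdm2b* hippocampi *Rnf2* was at 24.9, 23.2 and 25.2 FPKM in controls and 27.1, 27.7 and 24.6 in cKO, which overlap (0.11, interval -0.03 to 0.25). In neurospheres and cortex its log2 fold changes were 0.17 and 0.07.

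*Ring1* fell in neurospheres. Its controls were at 16.1 and 16.0 FPKM and its cKO libraries at 10.5 and 10.5, a log2 fold change of -0.56 (SE 0.08, limma adjusted p = 0.00807). The fall was nearly the same without each library, and with libraries rescaled to the same FPKM total, which lowers every value of control library 1, it was -0.45 and not called. Relative to the median of all genes it was -0.55 under both scalings. In *Rnf2* hippocampi *Ring1* was at 3.94 and 4.12 FPKM in controls and at 4.52 and 6.63 in cKO. The cKO libraries were both above the controls, yet they differed more from each other than the lower one did from the controls (0.37, interval -0.10 to 0.83, adjusted p = 0.731 from limma), and without cKO library 1 the value was 0.60 and passed the call. In *Kdm2b* hippocampi it was at 10.7, 10.03 and 9.55 FPKM in controls and at 10.4, 10.96 and 11.3 in cKO (0.10, interval -0.06 to 0.26), and in cortex at 10.1 and 7.41 against 7.76 and 8.61 (-0.07, interval -0.46 to 0.31). *Mir219a-1*, joined with *Ring1* in 2 tables, lies 303 bases before its start and was at no more than 0.243 FPKM on average in cortex and 0 in *Rnf2* hippocampi.

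Several cell markers also differed between the neurosphere groups, where 66.4% of all genes tested had ranges that did not overlap. Beside the fall of *Ring1*, all 5 astrocyte markers were lower in both cKO libraries, with a summed level of 393 to 426 FPKM against 633 to 634 in controls. The proliferation gene *Mki67* was at 47.7 and 46.6 FPKM in cKO and 23.8 and 21.1 in controls, and the 7 progenitor markers summed to 5209 to 7065 against 3746 to 4165 FPKM. Of these 7, 4 were higher and 1 lower in both cKO libraries, the sum being mostly *Vim* and *Fabp7*, while the Notch target *Hes5* was lower, at 10.4 and 10.7 against 21.137 and 21.005 FPKM. Of 5 oligodendrocyte lineage markers 3 were lower in both cKO libraries and 1 higher. *Gpr17*, a gene of oligodendrocyte precursors, was at 5.55 and 5.10 FPKM in cKO and 92.7 and 107 in controls, and *Pdgfra*, their growth factor receptor, at 12.7 and 10.4 against 43.8 and 45.9, although the sum given above, which *Olig1* and *Olig2* make up for the most part, hardly differed. Microglia, blood and meningeal markers were near 0, with sums of at most 4.26 FPKM. The part of these differences in the subunit values was not tested.

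*Rybp* (ENSMUSG00000072872, chromosome 6, 100228565 to 100287485, minus strand) and *Yaf2* (ENSMUSG00000022634, chromosome 15, 93284278 to 93336935, minus strand) encode paralogous subunits that exclude CBX proteins. *Rybp* was not called in any comparison. In *Kdm2b* hippocampi it was at 14.3, 14.1 and 13.2 FPKM in controls and 12.3, 13.1 and 12.7 in cKO, so the groups just missed overlap (-0.12, interval -0.26 to 0.02). Its log2 fold changes were -0.09 in neurospheres, -0.13 in cortex and 0.16 in *Rnf2* hippocampi.

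*Yaf2* was higher in cKO neurospheres, at 49.97 and 52.2 FPKM against 39.0 and 40.7 in controls. The log2 fold change of 0.35 was under the threshold of 0.4 although its adjusted p from limma was 0.0298. In *Kdm2b* hippocampi it went the other way, at 27.7, 24.5 and 27.8 FPKM in controls and 24.2, 24.4 and 23.9 in cKO, by a log2 fold change of -0.13 (interval -0.27 to 0.003, adjusted p = 0.228 from limma). In *Rnf2* hippocampi control library 1 stood out at 53.2 FPKM, with 39.8 in control library 2 and 38.1 and 37.4 in cKO (-0.28, interval -0.67 to 0.11). Without control library 2 that value was -0.48 and passed the call, so 1 library sets it. In cortex it was at 25.2 and 27.4 FPKM in controls and 27.4 and 30.0 in cKO (0.12).

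*Skp1a* (ENSMUSG00000036309, chromosome 11, 52231995 to 52246858), which also builds the SCF ubiquitin ligases, had the log2 fold change nearest 0 of the 10 in *Kdm2b* hippocampi, at 233, 219 and 217 FPKM in controls and 226, 216 and 227 in cKO. The log2 fold change was 0.00 with an interval from -0.11 to 0.11. It was 0.10 in neurospheres, -0.02 in cortex and -0.22 in *Rnf2* hippocampi, where the controls were at 267 and 246 FPKM and the cKO libraries at 217 and 222 (interval -0.49 to 0.05, adjusted p = 0.727 from limma). *Usp7* (ENSMUSG00000022710, chromosome 16, 8689595 to 8792308, minus strand) was at 37.8, 38.4 and 37.0 FPKM in control and 39.6, 37.7 and 37.4 in cKO hippocampi (0.02, interval -0.09 to 0.12). In neurospheres it was at 31.4 and 32.1 FPKM in controls and 38.8 and 37.4 in cKO, a log2 fold change of 0.26 (limma, unadjusted p = 0.0171, adjusted p = 0.0650) and below the threshold of 0.4. In cortex and *Rnf2* hippocampi the values were -0.07 and 0.12.

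Whether an effect differed between comparisons was tested as the difference of log2 fold changes over 11032 genes tested in all 4 tables. Against *Rnf2* hippocampi, the effect on *Bcor* in *Kdm2b* hippocampi was larger by 1.19 (interval 0.80 to 1.59, adjusted p = 0.00888 from limma), and it was the only subunit past an adjusted p of 0.05, where 0.707% of all genes were. The libraries of these comparisons also differed in sex. *Xist* was at no more than 0.0732 FPKM in the *Kdm2b* hippocampi except cKO library 1, and at 71.0 FPKM or more in all *Rnf2* libraries. The part of sex in this difference was not tested. Against neurospheres 3 subunits passed, where 24.1% of all genes did. These were *Bcor*, larger in hippocampi by 0.74 (interval 0.35 to 1.13; adjusted p = 0.00859 from limma), *Ring1*, by 0.66 (0.29 to 1.04; adjusted p = 0.0117), and *Yaf2*, lower by 0.48 on the log2 scale, with a difference of -0.48 (-0.77 to -0.20; adjusted p = 0.0164). The difference in *Bcor* was 0.51 without neurosphere cKO library 1 (adjusted p = 0.0512), and that in *Yaf2* was -0.45 without neurosphere control library 1 (adjusted p = 0.0635) and -0.45 without cKO library 2 (adjusted p = 0.0537), so each lost the call. Over 14 alternatives the adjusted p ranged from 0.00142 to 0.0512 for *Bcor*, from 0.000988 to 0.0403 for *Ring1* and from 0.00342 to 0.0635 for *Yaf2* against neurospheres, and from 0.00532 to 0.0471 for *Bcor* against *Rnf2* hippocampi. Against cortex 0 subunits passed by limma, where 0.272% of all genes did, and 0 had an unadjusted p under 0.05. The difference in *Bcor* between hippocampus and cortex was 0.22 with an interval from -0.17 to 0.61. The effect on *Bcorl1* did not pass in any contrast, the nearest being 0.40 against *Rnf2* hippocampi (interval -0.04 to 0.85; adjusted p = 0.355).

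**Figure D4:**
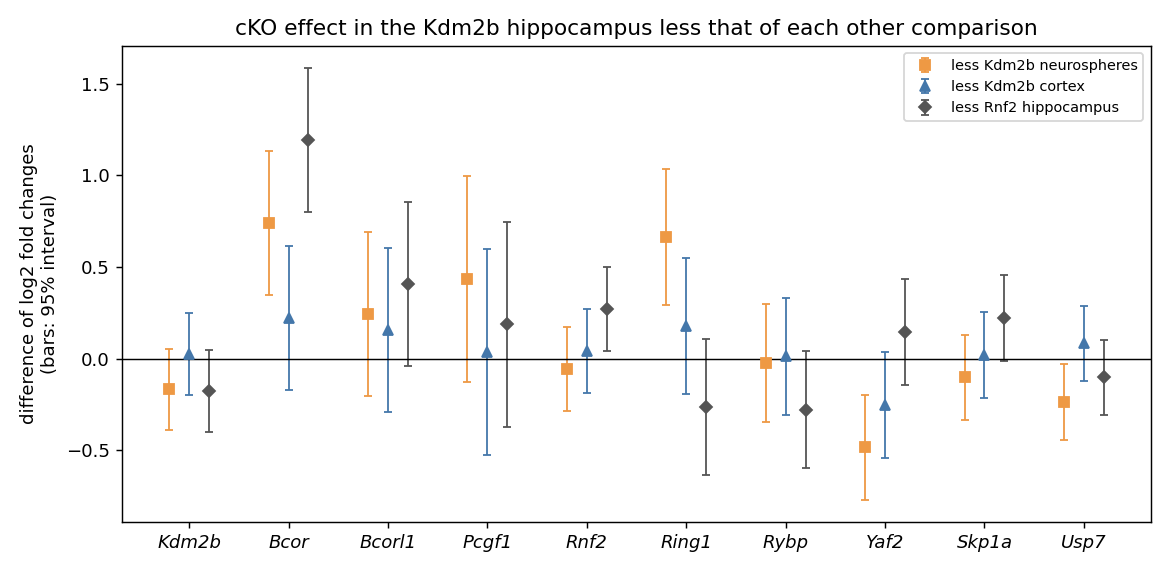
Log2 fold change of each subunit in the *Kdm2b* hippocampus less that in neurospheres, cortex and the *Rnf2* hippocampus, with 95% intervals from limma. *Bcor* lies above 0 against neurospheres (0.74) and the *Rnf2* hippocampus (1.19), and its interval against cortex includes 0.

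Ratios of paralogous subunits within a library do not depend on its scaling. The ratio of *Bcor* to *Bcorl1* was 2.72, 1.80 and 2.43 in control and 4.65, 4.71 and 3.44 in cKO libraries of *Kdm2b* hippocampi, a rise of 1.85-fold (exact permutation test, two-sided, p = 0.1, the smallest that 3 against 3 allows). In cortex it was 1.56 and 1.69 in controls and 2.97 and 2.97 in cKO, or 1.83-fold, and in neurospheres 2.21 and 2.29 against 2.77 and 3.17, or 1.32-fold, each with the smallest exact p that 2 against 2 allows, 0.3333. *Bcor* thus gained on *Bcorl1* in every *Kdm2b* cKO library, while in *Rnf2* hippocampi the ratios overlapped, at 2.31 and 1.98 against 2.32 and 2.25. The ratio of *Rnf2* to *Ring1* was 1.72 and 1.53 in control and 2.82 and 2.75 in cKO neurospheres (1.72-fold), and in *Rnf2* hippocampi it was 8.20 and 7.48 in controls and 6.31 and 4.19 in cKO (0.657-fold). The groups did not overlap in either case (exact p = 0.3333 in both). The ratio overlapped between groups in *Kdm2b* hippocampi (2.31 to 2.64 against 2.17 to 2.61) and in cortex. The ratio of *Rybp* to *Yaf2* was 0.162 and 0.172 in control and 0.139 and 0.105 in cKO neurospheres, 0.441 and 0.499 against 0.399 and 0.383 in cortex, and 0.250 and 0.399 against 0.399 and 0.472 in *Rnf2* hippocampi, where the groups all but touched. Over the 12 ratio tests the smallest adjusted p was 0.5, and this design could not give one under 0.05.

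**Figure D5:**
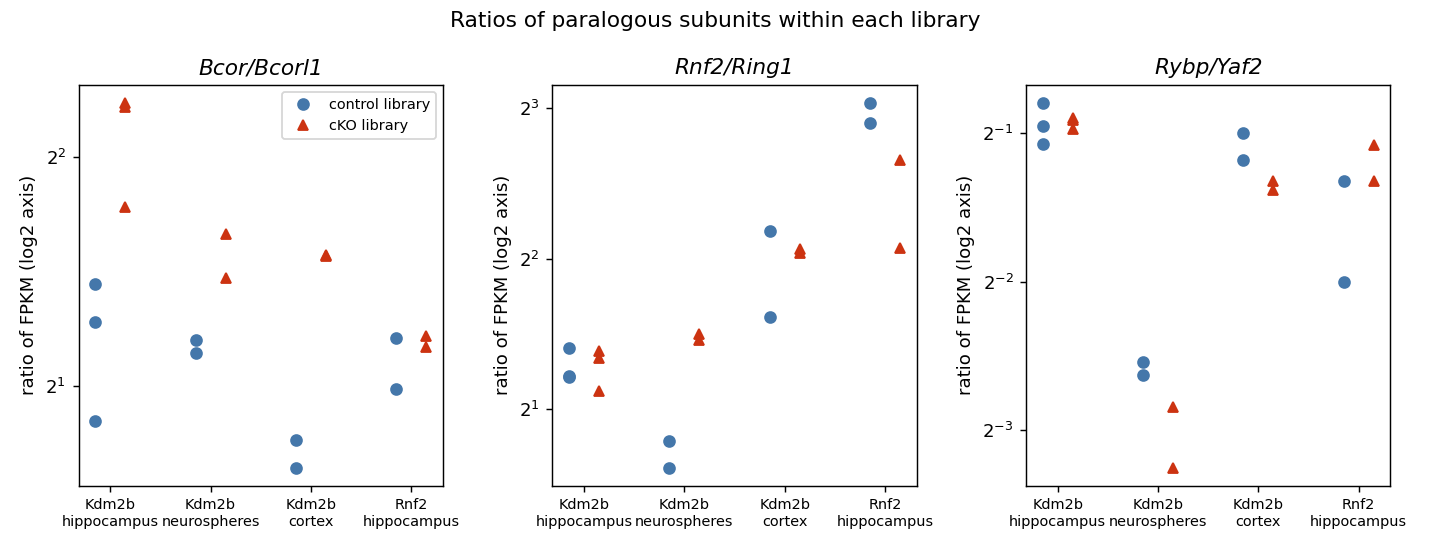
Ratio of FPKM of *Bcor* to *Bcorl1*, *Rnf2* to *Ring1* and *Rybp* to *Yaf2* in each library on a log2 axis, with circles for controls and triangles for cKO. *Bcor* to *Bcorl1* is higher in every *Kdm2b* cKO library than in its controls, from 2.77 against 2.29 in neurospheres up to 4.71 in hippocampi.

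In the cortex several markers of cells of other origin differed between the groups, where 44.8% of all genes tested had ranges that did not overlap. The 4 meningeal markers summed to 0.812 to 1.37 FPKM in controls and 15.05 to 23.0 in cKO, all 4 being higher in cKO. The 4 endothelial markers, all higher too, summed to 30.2 to 31.3 against 48.3 to 48.4. The 5 blood markers summed to 435 to 454 against 623 to 711, with 3 higher in both cKO libraries. The 5 microglial markers summed to 12.9 to 14.5 against 19.8 to 26.5, with 4 higher and 1 lower. The lower 1 was *P2ry12*, at 2.28 and 2.37 FPKM in controls and 1.76 and 1.58 in cKO. In *Kdm2b* hippocampi, microglial markers summed to 41.2 to 47.2 FPKM in controls and 52.5 to 69.4 in cKO. There, 29.2% of all genes tested had ranges that did not overlap, and 4 of 7 progenitor markers were higher in every cKO library than in any control. Among these 4 were *Nes* (14.2 to 16.3 FPKM in controls, 18.1 to 25.4 in cKO) and *Vim* (145 to 177 against 206 to 237). The sum over the 7 overlapped (984 to 1067 against 985 to 1112). Of 5 astrocyte markers 3 were lower in every cKO library, among them *Aqp4* (9.88 to 11.3 FPKM against 4.86 to 8.82), and 1 was higher, with sums of 229 to 248 against 237 to 318. The 7 neocortex markers in *Kdm2b* hippocampi summed to 95.2 to 108 FPKM against 115 to 126, with 3 higher and 1 lower in every cKO library. In *Rnf2* hippocampi 38.3% of all genes tested had ranges that did not overlap. Meningeal markers summed there to 25.7 to 25.9 FPKM in controls and 11.2 to 17.96 in cKO, with 3 of 4 lower in both cKO libraries. Blood markers summed to 217 to 271 against 197 to 201, with 4 of 5 lower. No marker of either list was higher in both. Choroid plexus markers summed to 12.5 and 50.4 FPKM in controls and to 7.73 and 242 in cKO, which overlap. The highest sum was mostly *Ttr*, at 233 FPKM in cKO library 1. Their part in the subunit values was not tested.

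Of the other Polycomb lists 2 genes were called in each of the 3 tissue comparisons, both higher (2 of 70 genes tested in hippocampi and 2 of 69 in cortex). These were 2.86% of the listed genes in *Kdm2b* hippocampi, 2.9% in cortex and 2.86% in *Rnf2* hippocampi. Of all genes, 3.89%, 4.73% and 2.86% were called higher there, and 2.25%, 2.28% and 1.85% lower. Of 13 genes of canonical PRC1, the form that holds CBX and PHC proteins, *Cbx7* alone was called in *Kdm2b* hippocampi, higher, from 3.43 ± 0.221 to 5.11 ± 0.259 FPKM (SD, n = 3, adjusted p = 0.0161 from limma), and none in cortex, where 12 were tested, or in *Rnf2* hippocampi. Of 19 genes of other variant PRC1 complexes, *Auts2* was called higher in *Rnf2* hippocampi (10.5 to 14.7 FPKM; log2 fold change 0.47, adjusted p = 0.697 from limma) and none in *Kdm2b* hippocampi or cortex. None of 7 H2A deubiquitinases was called by limma in any comparison. Of 11 CxxC proteins and KDM2 relatives, *Cxxc5* was called higher in cortex (19.0 to 29.9 FPKM; 0.62; adjusted p = 0.110 from limma), and of 8 SCF partners of SKP1 none was called in the 3 tissue comparisons. The list medians in these tissues lay between -0.09 and 0.29 on the log2 scale, the highest for canonical PRC1 in *Rnf2* hippocampi.

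*Epop*, an elongin-binding partner of PRC2, the complex that methylates histone H3, was called higher in every comparison. It was the 1 gene called of 12 on the PRC2 list in each tissue, and like *Bcor* it rose in the *Kdm2b* knockouts. It rose from 4.78 ± 0.513 to 15.1 ± 1.96 FPKM in *Kdm2b* hippocampi (SD, n = 3; log2 fold change 1.47, adjusted p = 0.000173 from limma). In neurospheres it went from 6.22 ± 0.297 to 20.0 ± 4.02 FPKM (1.52; adjusted p = 0.00246 from limma) and in cortex from 6.10 ± 0.226 to 20.54 ± 2.94 FPKM (1.59; adjusted p = 0.0240 from limma). In *Rnf2* hippocampi it was called too, at 7.76 ± 0.875 and 14.9 ± 2.39 FPKM (0.86), although its adjusted p from limma was 0.501. It was read under its older symbol, E130012A19Rik, in the tables of *Kdm2b* hippocampi and neurospheres.

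In neurospheres 12 of the 70 genes tested on these 6 lists were higher (17.1%) and 4 lower (5.71%), beside 11.4% and 13.2% of all genes. Of the PRC2 list 6 genes were higher, among them *Ezh2*, the methyltransferase, from 29.8 ± 1.66 to 46.1 ± 1.26 FPKM (SD, n = 2, adjusted p = 0.00655 from limma), and *Suz12*, its scaffold, from 25.1 ± 0.489 to 37.3 ± 0.446 (adjusted p = 0.00698), while *Ezh1* was lower, from 6.87 ± 0.185 to 3.85 ± 0.555 (adjusted p = 0.0143). Of canonical PRC1, *Cbx7* was lower, by a log2 fold change of -0.53. *Dnmt1*, the maintenance DNA methyltransferase with a CxxC finger, was higher by 0.93, and of the SCF partners *Fbxo5*, *Ccnf* and *Skp2*, all of them F-box genes of the cell cycle, were higher by 1.16, 0.86 and 0.63. Of the other variant PRC1 genes *Tfdp1* was higher by 0.70 and *Fbrsl1* lower, at -0.41. The PRC2 list had a median log2 fold change of 0.40 beside -0.01 over all genes. These lists were not tested as sets, and the higher level of *Mki67* given above holds for the same libraries.

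The genes most like a subunit across the 18 libraries were ranked by Pearson's r of log2(FPKM + 1) less the control mean of the table, over 11032 genes. For *Bcor* they were *Ptk7* (r = 0.955), *Scarf2* (0.946) and *Sft2d2* (0.944). *Scarf2* had log2 fold changes of 1.44, 1.21, 1.05 and 0.47 in *Kdm2b* hippocampi, neurospheres, cortex and *Rnf2* hippocampi, where *Bcor* had 1.44, 0.70, 1.22 and 0.24. For *Kdm2b* they were *B230216N24Rik* (0.873), *Faap100* (0.868) and *Glyr1* (0.863), and for *Rnf2* they were *Papd4* (0.901), *Phf10* (0.874) and *Ntan1* (0.868). These lists describe likeness only, since the libraries of a group share their genotype and scaling.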

How the data were processed

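RNA-seq of mouse P0 tissue and of cultured neurospheres was used, and groups were taken from the deposited labels. The authors deposited FPKM values per library. For *Kdm2b* hippocampi and neurospheres the methods name trimming with cutadapt, alignment to mm10 with STAR and FPKM from Cufflinks 2.2.1, and for cortical and *Rnf2* tables how FPKM were made is not given in the sources used here. In the latter tables FPKM times gene length is a whole multiple (within 0.1 read) of 1 step in 100% of values, which gives reads on genes. FPKM cannot be read as counts, so limma 3.58.1 in R 4.3.3 (lmFit, eBayes with a trend) was run on log2(FPKM + 1), a scale that understates changes of low genes, in each comparison by itself, over genes whose mean reached 0.5 FPKM. Calls used the thresholds of the study (log2 fold change above 0.4 in size, unadjusted p under 0.05), and p-values were adjusted by Benjamini-Hochberg over all genes. Where a name had several entries, the highest mean was kept, and entries without a name were left out (2861 of 27180, 2059 of 26293, 140 of 54672 and 0 of 54532). Effects were compared between tables as contrasts of 8 group means. Ratios were tested by exact permutation (scipy 1.17.1).

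Named genes are the subunits, genes overlapping them or within 5000 bases, called genes of 6 other Polycomb lists (at most 6 per comparison by p), markers, and the 3 genes most like *Kdm2b*, *Bcor* and *Rnf2*. *Suz12*, *Ezh1*, *Skp2*, *Fbrsl1* and the neurosphere value of *Cbx7*, beyond that limit, were named after their values were seen, and some items are not reported here. Members and lists were chosen with earlier results of these data known. Sequences are from RefSeq promoter windows (GRCm38.p6; 7 of 10 subunits matched) and GENCODE M21. Alternatives were a pseudocount of 0.1, no filter, a filter of 1 FPKM, rescaling to 1 total, median-ratio scaling, no trend, a replicate block, adjusted p, no fold threshold, the sum of entries, limma-voom on recovered reads, and each library left out. The methods were tested on simulated data.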

Additional observations from a re-analysis of the deposited data

Results flagged for a closer look

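The effect of the knockout on 3 subunits differed between comparisons by a test of the difference itself (limma, adjusted p under 0.05). Of the 10 subunits, 3 passed against neurospheres, where 24.1% of all genes did, and 1 against *Rnf2* hippocampi, where 0.707% did. For *Bcor* the log2 fold change in *Kdm2b* hippocampi was larger by 0.74 than in neurospheres and by 1.19 than in *Rnf2* hippocampi. The *Kdm2b* and *Rnf2* hippocampal libraries also differed in sex, as given above, and its part was not tested. For *Ring1* it was larger by 0.66 than in neurospheres, and for *Yaf2* it differed by -0.48 from that in neurospheres. Against neurospheres *Bcor* lost the call without neurosphere cKO library 1 (adjusted p = 0.0512 from limma), and *Yaf2* without control library 1 (0.0635) and without cKO library 2 (0.0537). No group held 4 or more libraries, so a search for single libraries far from their group was not possible.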

How the results depend on the processing

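In *Kdm2b* hippocampi 2 subunits were higher and 0 lower under each of 16 alternatives, and the log2 fold change of *Bcor* stayed between 1.41 and 1.53 there. In neurospheres the count of lower subunits was 0 after rescaling every library to 1 FPKM total and the count of higher ones 3 with no fold threshold (*Yaf2* and *Usp7* joining), and with a library left out both counts ran from 1 to 2. In cortex 2 were higher with a pseudocount of 0.1, with limma-voom on the reads and with no fold threshold, *Bcorl1* joining *Bcor* each time, and 1 to 2 with a library left out. In *Rnf2* hippocampi 0 to 1 were higher and 0 to 1 lower with a library left out. Of 610 recomputed log2 fold changes of subunits, 580 kept direction and side of the threshold, 11 newly passed, 1 no longer did and 18 changed sign, all of the last being of genes that were not called. Most of the 580 were uncalled values that stayed uncalled, so this count says little on the called ones. *Skp1a* was -0.0057 in *Kdm2b* hippocampi with median-ratio scaling, and *Rybp* 0.0113 in rescaled neurospheres. With a library left out, sign changes gave ranges of -0.0263 to 0.33 for *Pcgf1*, -0.0186 to 0.0306 for *Skp1a* and -0.00686 to 0.0323 for *Usp7* in *Kdm2b* hippocampi, and of -0.24 to 0.0558 for *Rybp* in neurospheres. In cortex the ranges were -0.0817 to 0.33 for *Pcgf1*, -0.10 to 0.0626 for *Skp1a*, -0.15 to 0.0151 for *Usp7*, -0.26 to 0.00810 for *Rybp* and -0.27 to 0.12 for *Ring1*. In *Rnf2* hippocampi they were -0.00976 to 0.16 for *Kdm2b*, -0.11 to 0.37 for *Bcorl1* and -0.0652 to 0.0170 for *Pcgf1*. The difference in *Ring1* between hippocampus and cortex ran from -0.0233 to 0.38, and that in *Yaf2* between *Kdm2b* and *Rnf2* hippocampi from -0.0587 to 0.35. With 1 library left in a group of 2, limma takes it to vary like the others. The cause of these moves was not tested.

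Replicate numbers were not treated as pairs. Deviations of libraries with the same number correlated at 0.05, -0.10 and -0.09 in *Kdm2b* hippocampi, where 0 of 6 libraries deviated most alike with their own number, and at -0.28 in neurospheres, -0.05 in cortex and 0.16 in *Rnf2* hippocampi. With 2 against 2 libraries both numbers give the same correlation, so these values cannot settle pairing. In *Rnf2* hippocampi the block gave 552 higher and 437 lower genes against 451 and 291 without it. A replicate block left the counts of called subunits at 2 and 0, 1 and 1, 1 and 0, and 0 and 0. With the neurosphere cKO numbers crossed, an alternative chosen after seeing the data, they were 1 and 1, and over all genes 1445 higher and 1639 lower against 1380 and 1613 with the block.

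Over all genes, adjusted p in the call left 198 lower genes of 303 in *Kdm2b* hippocampi, 58 higher and 9 lower of 742 and 358 in cortex, and 0 of 451 and 291 in *Rnf2* hippocampi. Without the fold threshold limma gave 1537 higher and 1553 lower genes in *Kdm2b* hippocampi against 523 and 303, 2230 and 2439 in neurospheres against 1392 and 1620, 1212 and 801 in cortex, and 692 and 429 in *Rnf2* hippocampi. Rescaling left 830 of 1620 lower genes in neurospheres. Cortex without control library 1 gave 1226 higher. In *Rnf2* hippocampi the block gave 437 lower, leaving out control library 2 gave 808 and 772, leaving out cKO library 1 gave 191 lower, and leaving out cKO library 2 gave 278 and 190. FPKM with unknown depth give no counting error for *Kdm2b* hippocampi and neurospheres, and groups of 2 leave wide intervals.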
